A study of Mus musculus with 79 samples.

Results

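The genes described here are 9 interferon-induced genes of the mouse: Irf7, Isg15, Usp18, Oasl2, Ifit1, Ifit3, Rsad2, Bst2 and Ifi44. They were taken by symbol from the first column of 5 gene count tables, which together list 15198 genes. All 9 were listed in liver, kidney and lung of mice kept in light and dark, and 8 in each liver table of mice kept in darkness, where Rsad2 was not listed. After a filter on low counts, 8 could be tested in light-dark liver (Rsad2 not), 9 in kidney, 9 in lung and 7 in each darkness table (Rsad2 and Ifi44 not). C57BL/6 mice aged 3 months breathed gas with 6% oxygen or synthetic air with 21% oxygen for 4 h in a flushed cage and were killed at once. In the light-dark experiment, 16 wild-type mice under 12 h of light and 12 h of dark were exposed at zeitgeber time (ZT) 4-8, in the light, or ZT16-20, in the dark, and each mouse gave a liver, a kidney and a lung library. In the second experiment, wild-type mice and Per1,2 double knockout (KO) mice, labelled as lacking both of these clock genes, spent 2 days in constant darkness before exposure at circadian time (CT) 4-8 or CT16-20, and only liver was sequenced. This gives 79 libraries in 20 groups of 4 mice (3 in the KO group at CT16-20 in 6% oxygen), with libraries named here by their letter from A to D.

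Type I interferons bind the receptor Ifnar1/Ifnar2, and the kinases Jak1 and Tyk2 then activate transcription factors that include Stat2 and Irf9. These bind interferon-stimulated response elements in promoters and turn on a large set of antiviral genes. Irf7 is a transcription factor that is itself induced and drives more interferon. Isg15 is a ubiquitin-like protein joined to other proteins, and Usp18 removes it and also blocks the receptor, which limits the response. Oasl2, Ifit1, Ifit3, Rsad2 (viperin) and Bst2 (tetherin) act against viruses, while Ifi44 is less well defined. Most tissues express such genes at a low level without infection.

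The promoter stretches around the response-element letters are shown first because they are what several of the genes share in sequence. RefSeq windows from 250 bases before to 50 bases after the gene start (build GRCm38.p6, equivalent to mm10) were present for 8 of the 9 genes. The core of the interferon-stimulated response element, GAAA followed by any 2 bases and GAAA, was sought on both strands (TTTC, any 2 bases and TTTC on the other strand). It was found in 5 of the 8 windows, those of Isg15, Bst2, Rsad2, Ifit3 and Ifit1, against 3.44% of all 32851 windows of the same 300 bases, and not in those of Irf7, Oasl2 and Ifi44. For each gene with a match, 30 bases of the gene's own strand are given with 1 match in capitals. They lie at chr4:156200871-156200900 (minus strand) for Isg15, chr8:71537577-71537606 (minus) for Bst2, chr12:26456553-26456582 (minus) for Rsad2, chr19:34583397-34583426 (plus) for Ifit3 and chr19:34640794-34640823 (plus) for Ifit1.
Isg15: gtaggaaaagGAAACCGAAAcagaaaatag
Bst2: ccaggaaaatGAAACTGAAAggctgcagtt
Rsad2: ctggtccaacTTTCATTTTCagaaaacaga
Ifit3: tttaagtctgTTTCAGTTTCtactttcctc
Ifit1: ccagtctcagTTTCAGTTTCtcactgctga

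The matches read in the sense direction in Isg15 and Bst2 and on the other strand in Rsad2, Ifit3 and Ifit1. Isg15 had 3 overlapping matches that begin at positions -78, -72 and -66 from the start, and Bst2 had 2 overlapping ones that begin at -130 and -124. Ifit3 and Ifit1 had 2 separate matches each, and Rsad2 had 1. The STAT dimer letters TTCNNNGAA were found in 1 of the 8 windows, that of Bst2, where they overlap the response-element match, against 8.30% of all windows. The core of the hypoxia response element, ACGTG or CACGT, was found in 1 of the 8, that of Oasl2, against 19.6% of all windows. These are matches of letters and not measured binding sites.

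**Figure D1:**
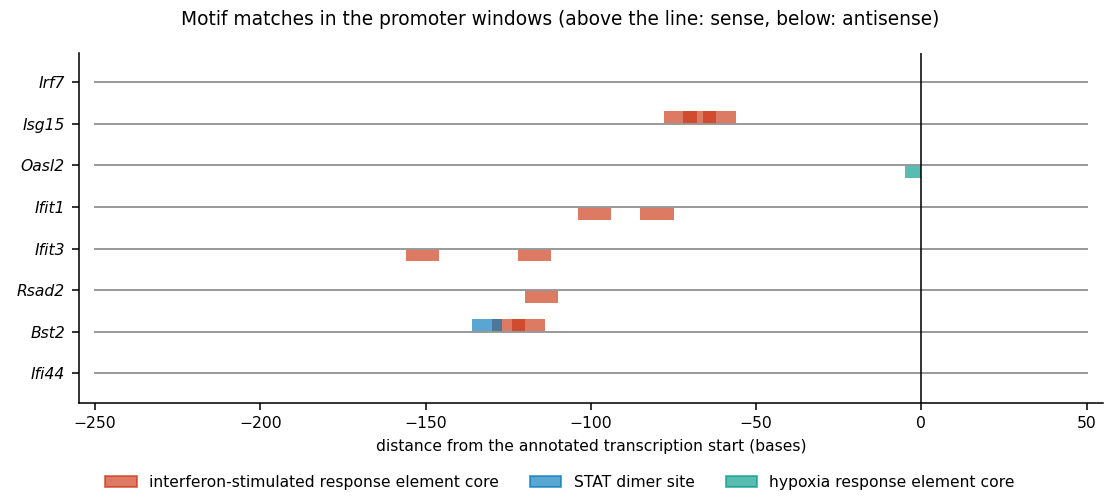
Positions of the matched letters in the promoter windows of 8 genes, as distance in bases from the gene start, with a separate symbol for each motif. The response-element matches of Isg15, Bst2, Rsad2, Ifit3 and Ifit1 all lie between positions -156 and -57.

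Total counts were 1.44 M to 6.74 M per library (median 3.02 M), and levels are CPM, gene counts relative to the total of their library with TMM scaling within each table. The tissue labels fit their defining markers: Alb was 53715 to 110700 CPM in light-dark liver, Slc34a1 4523 to 6908 in kidney and Sftpc 28857 to 49030 in lung. In lung, 3 air libraries (B and C at ZT4-8, D at ZT16-20) held RNA of keratinised epithelium (339 to 5344 CPM, against at most 55.4 in 6% oxygen) and skeletal muscle (2695 to 2795 CPM, against at most 26.4). Results in lung were therefore also computed without them. The brown fat gene Ucp1 was spread over lung libraries of both oxygen levels, at 0.591 to 747 CPM in air (highest in library A at ZT16-20) and 0.527 to 341 in 6% oxygen. In 6% oxygen, Per1 was lower in KO (14.8 to 31.1 CPM) than in wild-type liver (44.8 to 84.3), whereas in air the ranges of Per1 and of Per2 overlapped, and Per2 in 6% oxygen was 18.9 to 32.0 in KO and 2.91 to 29.0 in wild-type liver. Counts outside the deleted part check nothing, so genotypes are used as labelled. Replicates are separate mice. Genotype and count table coincide, so a difference between the tables cannot be told apart from genotype. In these bulk tissues, fewer cells of a type and less RNA per cell cannot be told apart either.

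In air, the genes differed in where they were highest. Bst2 and Irf7 were highest in liver and Oasl2 and Ifit3 in lung, while kidney was lowest for Bst2, Irf7, Usp18, Isg15 and Ifit1. Levels across tissues are CPM on 1 common scale over the 48 light-dark libraries, each over the 8 air libraries of a tissue. Bst2, a membrane protein that tethers budding viruses, ran from 654 to 1209 CPM in liver (median 831), 52.9 to 85.2 in kidney (median 64.1) and 174 to 249 in lung (median 227). The 3 tissues did not overlap. Irf7 ran from 113 to 272 CPM in liver (median 164), 23.1 to 39.7 in kidney (median 31.0) and 43.5 to 67.2 in lung (median 58.4), without overlap on this scale. Oasl2, related to oligoadenylate synthetases, ran from 1.31 to 6.56 CPM in liver (median 6.06), 2.8 to 7.02 in kidney (median 4.75) and 13.7 to 32.7 in lung (median 26.8). For Oasl2 liver and kidney overlapped and every lung library was above both.

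**Figure D2:**
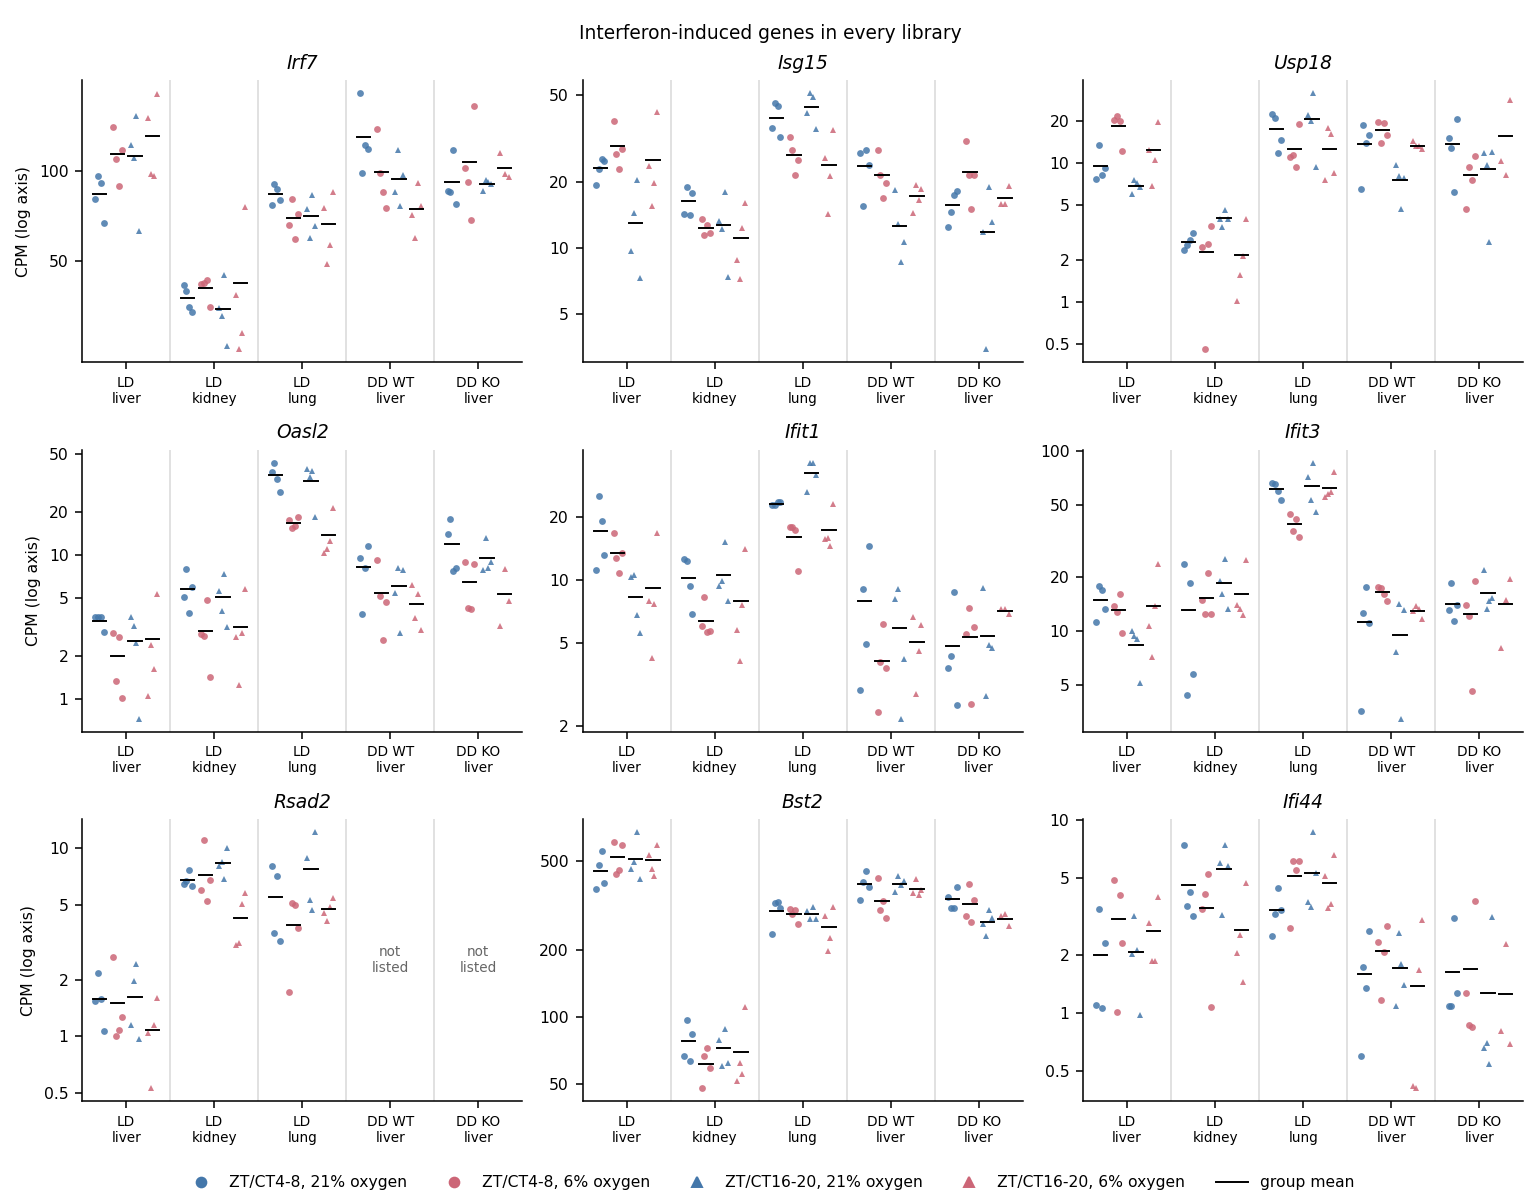
CPM (log axis) of the 9 genes in each library, by table, with blue for 21% and red for 6% oxygen, circles for the earlier and triangles for the later time, and a black bar at each group mean. Rsad2 is marked as not listed in the darkness tables, and lung Oasl2 shows the air groups (means 35.7 and 32.9 CPM) above the 6% groups (16.8 and 13.8).

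A fit over the 48 libraries with mouse as a block compared tissues in air, with calls at an adjusted p under 0.05 (edgeR quasi-likelihood test, Benjamini-Hochberg over all 10649 genes). Tissues differ in most genes, so these calls stand beside a high background. Between kidney and liver 7 of the 9 were called (6 lower and 1 higher in kidney; 65.9% of all genes called), between lung and liver 5 of 9 (3 higher and 2 lower in lung; 78.8%), and between lung and kidney 8 of 9 (7 higher and 1 lower in lung; 75.5%). Bst2 was 12.9-fold lower in kidney than in liver (log2 difference -3.69 ± 0.12 SE, adjusted p = 7.9e-27). Oasl2 was 4.91-fold higher in lung than in liver (2.29 ± 0.18, adjusted p = 5.5e-15), and Ifit3, which binds viral RNA together with Ifit1, was higher by 1.25 ± 0.17 on the log2 scale (adjusted p = 2.6e-08). Rsad2, which makes an antiviral nucleotide, went the other way in kidney, higher than in liver by 1.16 ± 0.26 (adjusted p = 0.00012).

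Ifit1, Isg15 and Usp18 were close in lung and liver on that scale, with log2 differences, lung minus liver, of 0.00, 0.03 and -0.04. This depends on the scaling, because liver libraries had a median scaling factor of 0.596 against 1.19 in kidney and 1.42 in lung. With plain library totals the median of all genes moved by 0.99 (kidney minus liver), 1.35 (lung minus liver) and 0.36 (lung minus kidney) on the log2 scale. Ifit1, Isg15 and Usp18 were then called higher in lung than in liver (1.30, 1.34 and 1.26). Ifit3 turned from lower to higher in kidney against liver (from -0.58 to 0.40), and Ifit1 (-0.20) was no longer called there. Bst2 stayed highest in liver, and Oasl2 and Ifit3 in lung, on either scale. Irf7 was still called lower in lung than in liver, but by only -0.24 in place of -1.55, and with plain totals its libraries overlapped (59.7 to 138 CPM in liver and 61.2 to 91.5 in lung). Without the mice of the 3 lung libraries named above, the calls of Ifit3 in kidney against liver (-0.41) and of Rsad2 in lung against liver (0.61) were lost. Leaving out single mice, the first was lost without air mouse B at ZT4-8 (log2 differences from -0.85 to -0.37), and the second without air mouse A or C at ZT4-8 or A or D at ZT16-20 (0.47 to 0.98). Rsad2 in lung against kidney (-0.47, adjusted p = 0.048) was also lost under other scaling, DESeq2, no block and 9 of 16 left-out mice (-0.59 to -0.38).

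In lung some of the genes fell in low oxygen. At ZT4-8, Oasl2, Ifit3, Ifit1 and Isg15 fell, 4 of the 9 tested, and at ZT16-20 Oasl2, Ifit1 and Isg15 fell, 3 of the 9, with none higher at either time. Over all genes, 22.6% were called at ZT4-8 and 21.2% at ZT16-20 in either direction, so many other lung genes changed as well. The median log2 difference of the 9 was -0.45 at ZT4-8 and -0.72 at ZT16-20, beside -0.001 and -0.011 over all genes tested, with 8 and 9 of the 9 below 0.

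Oasl2 had the lowest adjusted p of the 9 at both times. At ZT4-8 the air libraries A to D held 37.7, 43.9, 33.8 and 27.6 CPM and the 6% libraries 17.6, 15.4, 15.8 and 18.3. Every air library was above every 6% library. Oasl2 fell 2.12-fold (log2 difference -1.09 ± 0.23 SE, adjusted p = 0.0012). At ZT16-20 the air libraries held 39.9, 34.9, 38.3 and 18.4 CPM and the 6% libraries 10.3, 11.1, 12.5 and 21.3. The groups overlapped only through library D of each, the lowest in air and the highest in 6%. The fall was 2.36-fold (-1.24 ± 0.24, adjusted p = 0.00055).

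Ifit1, which binds viral RNA that lacks the host's cap methylation, was at 23.0, 22.8, 23.7 and 23.8 CPM in air at ZT4-8 and 17.9, 17.9, 17.4 and 11.1 in 6% oxygen. The air libraries were close together and all above the 6% libraries. The fall was 1.46-fold (-0.54 ± 0.18, adjusted p = 0.029). At ZT16-20 Ifit1 was at 26.5, 36.7, 36.4 and 31.8 CPM in air and 15.8, 15.9, 14.6 and 23.3 in 6% oxygen, again with no overlap, and fell 1.87-fold (-0.90 ± 0.18, adjusted p = 0.00061). Library D was the highest of that 6% group.

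Isg15, the ubiquitin-like modifier, was at 35.2, 45.7, 44.4 and 32.0 CPM in air at ZT4-8 and 32.1, 27.9, 21.6 and 25.2 in 6% oxygen. The groups met at their edges, with 6% library A just above air library D. The fall was 1.48-fold (-0.56 ± 0.20, adjusted p = 0.044). At ZT16-20 Isg15 was at 41.2, 50.8, 48.8 and 35 CPM in air and 25.8, 14.3, 21.4 and 34.5 in 6% oxygen. Library D of the 6% group came closest to the air range without entering it. The fall was 1.81-fold (-0.86 ± 0.20, adjusted p = 0.0035).

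Ifit3 was at 66.4, 65.2, 59.9 and 53.5 CPM in air at ZT4-8 and 44.8, 36.1, 42.1 and 33.2 in 6% oxygen. No 6% library reached the air range, and Ifit3 fell 1.57-fold (-0.65 ± 0.17, adjusted p = 0.0055). At ZT16-20 it was at 71.7, 53.2, 86.3 and 45.9 CPM in air and 55.4, 57.7, 59.2 and 76.3 in 6% oxygen. The ranges overlapped almost wholly, and the log2 difference was -0.06 with a 95% interval of -0.39 to 0.28. The difference between the times, tested directly, was 0.59 ± 0.23 and did not pass (adjusted p = 0.53).

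The other 5 genes were not called in lung at either time. Usp18 was at 11.8 to 22.7 CPM in air and 9.48 to 19.1 in 6% oxygen at ZT4-8 (95% interval of the log2 difference -1.18 to 0.31), and 9.36 to 32.0 against 7.57 to 18.1 at ZT16-20 (-1.52 to 0.01). Irf7 was at 77 to 90.1 against 59.3 to 80.6 CPM at ZT4-8 (-0.57 to 0.04) and overlapped more at ZT16-20 (59.7 to 83.1 against 48.8 to 84.8). Bst2 was at 235 to 328 CPM in air and 260.4 to 304 in 6% oxygen at ZT4-8, an interval of -0.32 to 0.22. The ZT4-8 intervals of Usp18 and Irf7 include the size of the fall called in Ifit1, and that of Bst2 does not. Rsad2 (1.72 to 12.2 CPM over the 16 lung libraries) and Ifi44 (2.49 to 8.65) were low and had wide intervals. For Rsad2 these were -1.19 to 0.29 at ZT4-8 and -1.45 to 0.0007 at ZT16-20. For Ifi44 they were -0.08 to 1.29 (estimate 0.61) and -0.89 to 0.47.

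Without the 3 air libraries that held other tissue, the falls of Oasl2 at both times, Ifit3 at ZT4-8, and Ifit1 and Isg15 at ZT16-20 kept their calls. The ZT4-8 calls of Ifit1 (-0.54) and Isg15 (-0.33) were lost, and Usp18 was called lower at ZT16-20 (-1.0). The same 5 kept their calls without each single library in turn: Oasl2 ran from -1.18 to -0.96 at ZT4-8 and -1.54 to -1.10 at ZT16-20, Ifit3 from -0.72 to -0.58, Ifit1 from -1.08 to -0.83 and Isg15 from -1.09 to -0.67. At ZT4-8 the call of Ifit1 was lost without any 1 air library or without 6% library D (-0.60 to -0.39, adjusted p up to 0.13), and that of Isg15 without air library A, B or C or 6% library B, C or D (-0.65 to -0.47, adjusted p up to 0.14). With the replicate letter as a block Isg15 at ZT4-8 reached an adjusted p of 0.078.

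Marker sums of some cell types differed between the oxygen levels in lung, and others overlapped. Calls of marker genes stand beside 22.6% of all lung genes called at ZT4-8 and 21.2% at ZT16-20. Neutrophil markers (5 of 6 listed, Ly6g not) summed to 306 to 513 CPM in air and 345 to 638 in 6% oxygen at ZT4-8, and 55.8 to 126 against 243 to 437 at ZT16-20, where 4 of the 5 were called higher. T and NK cell markers (5 of 6 listed, Trbc2 not) summed to 58.0 to 94.9 against 71.7 to 117 CPM at ZT4-8. There 1 of 5 was called higher, near the share of all genes. At ZT16-20 they summed to 42.7 to 61.5 against 60.7 to 81.2, with 2 of 5 called higher. Endothelial markers (5 of 5 listed) separated at ZT4-8, at 2194 to 2368 CPM in air and 2395 to 2749 in 6% oxygen, with 0 of 5 called, and overlapped at ZT16-20 (1644 to 2042 against 1501 to 2462). Skeletal muscle markers (6 of 6) also separated at ZT4-8, at 37.1 to 2795 against 14.4 to 24.5. B cell markers (4 of 4) overlapped, at 79.3 to 109 against 101 to 132 CPM and 28.8 to 101 against 58.8 to 132. Macrophage markers (8 of 10 listed, Clec4f and Vsig4 not) summed to 659 to 753 against 633 to 742 at ZT4-8 and 621 to 843 against 709 to 876 at ZT16-20. Markers listed for plasmacytoid dendritic cells (4 of 5 listed, Ccr9 not), known for making interferon, overlapped at both times. They summed to 149.5 to 318 against 161 to 227 CPM and 162 to 335 against 167 to 251. Siglech, which defines these cells, was only 0.802 to 4.48 CPM over the lung libraries. The sums therefore come mostly from the other listed genes and say little about these cells. The part of cell makeup in the falls of Oasl2, Ifit1, Ifit3 and Isg15 was not tested.

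In light-dark liver the calls went up, in 2 genes, Usp18 and Isg15. Usp18 rose at both times and Isg15 at ZT16-20, and none of the 8 genes tested was called lower. That is 1 of 8 at ZT4-8, where 9.64% of all genes were called in either direction. At ZT16-20 it is 2 of 8, where 20.3% were, a share near the background. The median log2 difference of the 8 was 0.27 and 0.29, beside -0.006 and -0.003 over all genes.

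Usp18, the protease that removes Isg15, was at 7.68, 13.5, 8.18 and 9.19 CPM in air at ZT4-8 and 20.6, 21.8, 20.0 and 12.2 in 6% oxygen. All 6% libraries but D were above the air range. The rise was 1.93-fold (0.95 ± 0.25, adjusted p = 0.017). At ZT16-20 Usp18 was at 6.01, 7.61, 7.16 and 6.79 CPM in air and 12.5, 6.89, 10.6 and 19.7 in 6% oxygen, overlapping through 6% library B. The rise was 1.79-fold (0.84 ± 0.27, adjusted p = 0.031).

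Isg15 was at 9.73, 14.5, 20.3 and 7.28 CPM in air at ZT16-20 and 23.8, 15.6, 19.9 and 41.8 in 6% oxygen. The groups overlapped, and library D was far above the rest of the 6% group. The rise was 1.90-fold (0.93 ± 0.30, adjusted p = 0.036). At ZT4-8 Isg15 was at 19.3, 23.0, 25.6 and 24.8 against 38, 26.8, 23.0 and 28.3 CPM, a log2 difference of 0.33 with an interval of -0.27 to 0.93 (not called).

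These liver calls depend on single libraries. Usp18 at ZT4-8 was no longer called without air library A or C or 6% library A or C (0.86 to 1.15, adjusted p up to 0.068). At ZT16-20, Isg15 lost its call without air library A, B or D or 6% library A or D (0.59 to 1.26, adjusted p up to 0.13), and Usp18 without air library A, C or D or 6% library A or D (0.55 to 1.03, adjusted p up to 0.15). The lowest values were those without 6% library D. With the replicate letter as a block, neither Isg15 (0.91) nor Usp18 (0.84) was called at ZT16-20.

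The other liver genes were not called. Irf7 was at 80.3, 96.3, 90.8 and 67.3 CPM in air and 139.7, 109.7, 88.8 and 118 in 6% oxygen at ZT4-8, which overlap in 1 library (0.45, interval -0.06 to 0.96). Oasl2 was at 3.73, 3.69, 3.69 and 2.91 CPM in air and 2.86, 1.34, 2.71 and 1.02 in 6% oxygen at ZT4-8, below air in every library without passing the test (-0.77, interval -1.73 to 0.20). Ifit3 was at 10.0, 9.33, 8.95 and 5.09 against 10.6, 7.15, 13.6 and 23.4 CPM at ZT16-20 (0.71, interval 0.11 to 1.31, adjusted p = 0.09). Library D of the 6% group was again the highest. Ifit3 was called when 6% library B was left out (0.91). Macrophage markers (10 of 10 listed) summed to 527 to 1019 CPM in air and 289 to 928 in 6% oxygen at ZT4-8, and 483 to 828 against 484 to 965 at ZT16-20. Their part in the result was not tested.

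In kidney only Rsad2 was called. At ZT16-20 it was at 8.01, 8.46, 6.88 and 10.0 CPM in air and 3.05, 3.15, 5.06 and 5.82 in 6% oxygen, with no overlap. It fell 1.96-fold (-0.97 ± 0.27, adjusted p = 0.03). At ZT4-8 it was at 6.45, 6.68, 7.64 and 6.33 against 5.98, 11, 5.25 and 6.75 CPM, with no clear separation, and the difference between the times was -1.04 ± 0.38 (adjusted p = 0.34). The ZT16-20 call was lost without air library A, B or D or 6% library A or B (-1.16 to -0.84, adjusted p up to 0.11). The brown fat gene Ucp1 separated the same groups, at 4.34 to 82.8 CPM in air and 0 to 2.83 in 6% oxygen, and its part in the result was not tested.

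The kidney count was 1 of 9 at ZT16-20, where 6.9% of all genes were called, and 0 of 9 at ZT4-8, where 5.28% were (2 at an unadjusted p under 0.05, and 0 with DESeq2). The median log2 difference was -0.35 at ZT4-8 and -0.45 at ZT16-20, beside 0.004 and 0.002 over all genes. Isg15 at ZT4-8 was at 14.3, 19.0, 14.1 and 17.8 CPM in air and 13.5, 11.5, 12.7 and 11.7 in 6% oxygen. All 4 of the 6% libraries were below the air range, yet the difference of -0.40 was not called (adjusted p = 0.41). Oasl2 at ZT4-8 was at 5.09, 7.96, 3.96 and 6.04 against 2.83, 2.76, 4.87 and 1.42 CPM, with 1 library of overlap (-0.96, interval -1.81 to -0.11, adjusted p = 0.20). Usp18 rested on 1 to 18 reads per kidney library, which limits each kidney comparison of it. Macrophage markers (6 of 10 listed) summed to 166 to 242 CPM in air and 195 to 368 in 6% oxygen at ZT16-20, the upper end in library D. The part of these cells in the results was not tested.

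**Figure D3:**
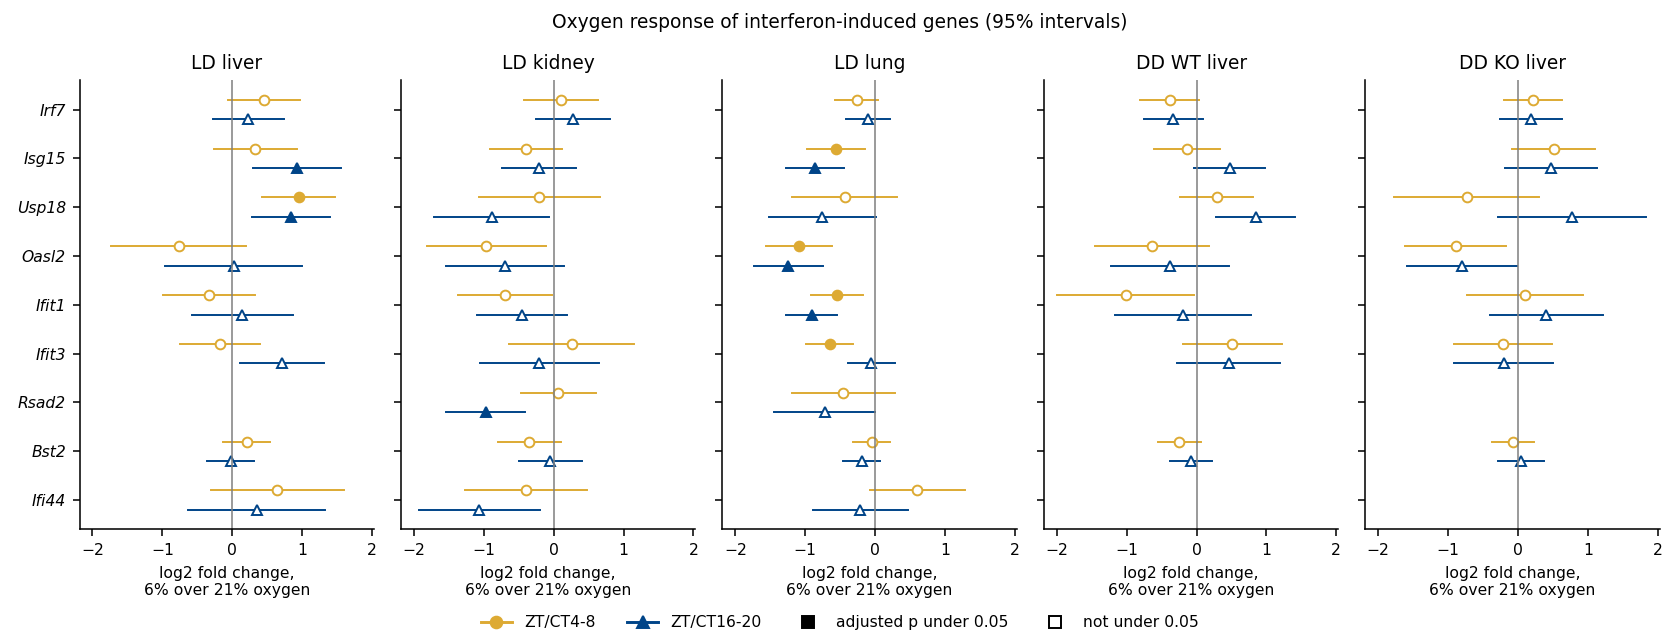
Log2 difference of 6% against 21% oxygen with its 95% interval for each gene and table, gold circles for the earlier and blue triangles for the later time, filled where the adjusted p is under 0.05. The filled points are below 0 in lung (7) and kidney (1) and above 0 in light-dark liver (3), and there are none in the darkness tables.

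Oxygen responses were compared between tissues in the fit over all 48 libraries. The value is the oxygen difference in 1 tissue minus that in another, averaged over both times. It tests unequal responses and not opposite directions. Within the tissues, Isg15 was called in both lung and liver, Usp18 in liver but not in lung, and Irf7 in neither. Isg15 and Usp18 differed between tissues. For Isg15 the difference was -1.33 ± 0.16 between lung and liver (adjusted p = 6.7e-08) and -0.93 ± 0.17 between kidney and liver (adjusted p = 0.00033). For Usp18 it was -1.44 ± 0.31 between lung and liver (adjusted p = 0.00095) and -1.47 ± 0.42 between kidney and liver (adjusted p = 0.027). Irf7 differed between lung and liver by -0.51 ± 0.14 (adjusted p = 0.0094).

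In all, 3 of 9 genes were called between lung and liver (15.2% of all genes called) and 2 of 9 between kidney and liver (6.43%), each more negative outside the liver. Between lung and kidney 0 of 9 were called (8.06% of all genes; 3 at an unadjusted p under 0.05, and 0 with DESeq2). The medians were -0.47 (kidney minus liver), -0.54 (lung minus liver) and -0.11 (lung minus kidney). The first pair of comparisons share the liver libraries. Oasl2, which fell in lung, differed from liver by -0.73 (adjusted p = 0.073), and Ifit1 by -0.60 (adjusted p = 0.062), so a difference between tissues was not shown for either with this scaling. Both were called with plain library totals (-0.84 and -0.70).

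The calls of Isg15 between both pairs, and of Usp18 between lung and liver, held without each mouse in turn. Usp18 between kidney and liver was lost without the mice of the 3 lung libraries (-1.55) and without mouse D in air at ZT4-8, A or B in 6% oxygen at ZT4-8 or A in 6% oxygen at ZT16-20 (-1.67 to -1.30, adjusted p up to 0.068). Irf7 was lost without those 3 mice (-0.45) and without the mouse block (-0.49). Ifit1 between lung and liver was called without those 3 mice (-0.74).

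**Figure D4:**
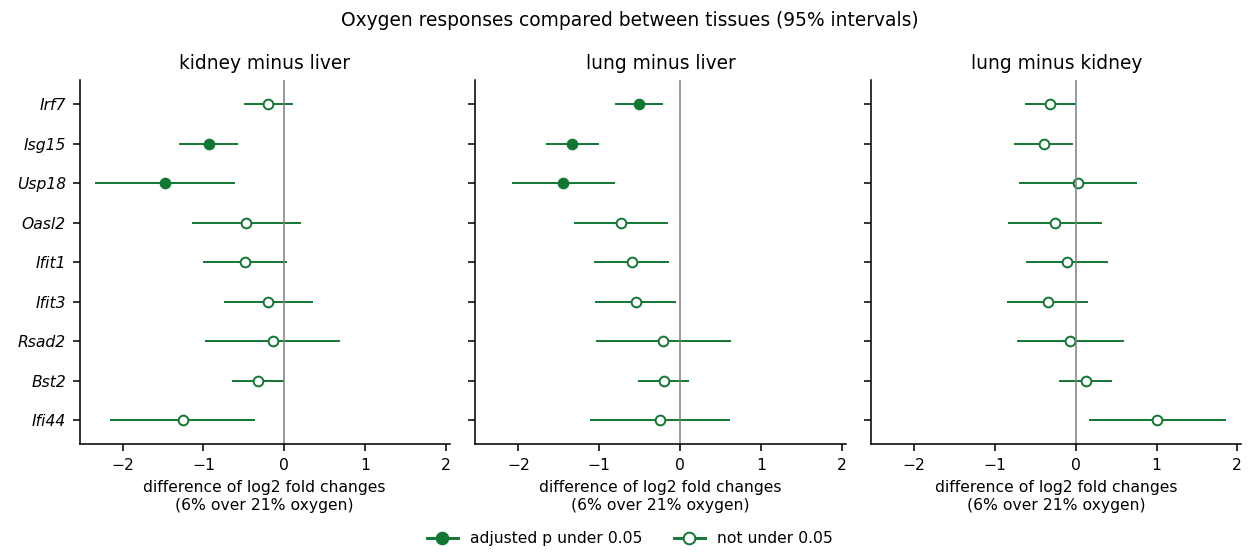
Difference in oxygen response (log2) between pairs of tissues for each gene with its 95% interval, filled where the adjusted p is under 0.05. Isg15 and Usp18 lie below 0 with filled points for kidney minus liver and for lung minus liver, and Irf7 for lung minus liver.

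Between the times of day in air, 1 gene in 1 table was called. In light-dark liver 0 of 8 were called (5.87% of all genes; 3 at an unadjusted p under 0.05, 1 with DESeq2). Ifit1 was at 11.2, 25.4, 19.3 and 13.2 CPM at ZT4-8 and 10.3, 10.6, 6.83 and 5.58 at ZT16-20. The later libraries were all below the earlier ones (-1.06 ± 0.33, adjusted p = 0.063), and this is the gene that DESeq2 called. Isg15 (19.3 to 25.6 against 7.28 to 20.3 CPM) and Ifit3 (11.2 to 17.8 against 5.09 to 10.0) were lower at ZT16-20 by log2 estimates of -0.81 and -0.82 (adjusted p = 0.13 and 0.10). Isg15 was called without air library C at ZT16-20 (-1.14), and Ifit1 without air library A at ZT4-8 (-1.22).

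In wild-type liver in darkness Isg15 fell from CT4-8 to CT16-20, 1 of 7 genes tested (3.66% of all genes; 3 at an unadjusted p under 0.05, 2 with DESeq2). It was at 27.2, 15.5, 27.9 and 23.9 CPM at CT4-8 and 18.4, 12.9, 8.62 and 10.7 at CT16-20. The groups overlapped through library B at CT4-8 and A at CT16-20. The fall was 1.89-fold (-0.92 ± 0.24, adjusted p = 0.032), and it was lost without library C or D at CT4-8 or B, C or D at CT16-20 (-1.14 to -0.75, adjusted p up to 0.12). Usp18 was at 6.52, 19.0, 13.9 and 16.0 against 9.74, 8.16, 4.67 and 7.88 CPM (-0.92 ± 0.27, adjusted p = 0.061), low at CT4-8 only in library A, and was called without that library (-1.11). In kidney 0 of 9 were called by time (1.09% of all genes; 0 at an unadjusted p under 0.05, 0 with DESeq2), in lung 0 of 9 (0.938%; 1 and 0) and in KO liver 0 of 7 (0.0235%; 1 and 0). Lung Ifit1 was at 22.8 to 23.8 CPM at ZT4-8 and 26.5 to 36.7 at ZT16-20 in air, without overlap, and the difference of 0.49 ± 0.17 was not called (adjusted p = 0.23).

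No gene's oxygen response differed between the times by the test. The count was 0 of 8 in light-dark liver (2.07% of all genes called; 1 at an unadjusted p under 0.05), 0 of 9 in kidney (0.368%; 1), 0 of 9 in lung (0.255%; 1), 0 of 7 in wild-type liver in darkness (1.6%; 0) and 0 of 7 in KO liver (0.0117%; 1). DESeq2 called 0 in each. The genes with an unadjusted p under 0.05 were Ifit3 in liver (0.88) and lung (0.59), Rsad2 in kidney (-1.04) and Usp18 in KO liver (1.51), with adjusted p of 0.32, 0.53, 0.34 and 0.64.

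In darkness no gene was called for oxygen in liver of either genotype. These libraries were less deep, with median totals of 2.14 M in wild-type and 1.96 M in KO liver, against 4.21 M in light-dark liver. In wild-type liver this was 0 of 7 at CT4-8 (11.8% of all genes; 1 at an unadjusted p under 0.05, 0 with DESeq2) and 0 of 7 at CT16-20 (9.83%; 1 and 1). In KO liver it was 0 of 7 at CT4-8 (5.58%; 1 and 0) and 0 of 7 at CT16-20 (4.48%; 1 and 0). The medians were -0.25 and -0.08 in wild-type and -0.07 and 0.18 in KO liver, beside -0.022, -0.003, 0.008 and -0.009 over all genes.

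Usp18, which rose in light-dark liver, was at 9.74, 8.16, 4.67 and 7.88 CPM in air and 14.5, 13.3, 13.2 and 12.6 in 6% oxygen in wild-type liver at CT16-20. Every 6% library was above every air library. The difference was 0.85 ± 0.27 with an interval of 0.28 to 1.41 and an adjusted p of 0.053, and DESeq2 called it. At CT4-8 it was at 6.52 to 19.0 against 13.9 to 19.8 CPM. In KO liver Usp18 was at 15.1, 13.0, 6.18 and 20.8 against 4.65, 9.46, 7.58 and 11.3 CPM at CT4-8, and 11.8, 9.70, 2.71 and 12.1 against 10.5, 8.28 and 28.7 at CT16-20, with overlap at both times.

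Isg15 in wild-type liver at CT16-20 was at 18.4, 12.9, 8.62 and 10.7 CPM in air and 14.5, 19.4, 16.6 and 18.7 in 6% oxygen, overlapping through air library A. Oasl2 in KO liver was at 14.1, 17.8, 7.73 and 8.18 against 8.88, 4.30, 4.21 and 8.64 CPM at CT4-8 (-0.89, adjusted p = 0.15) and 7.89, 13.2, 8.13 and 8.92 against 3.22, 8.03 and 4.79 at CT16-20 (-0.80, adjusted p = 0.27). Both 6% groups were lower on average and overlapped air. Irf7 in KO liver at CT16-20 was at 85.5, 92.8, 92.1 and 90.2 CPM in air and 115, 97.4 and 95 in 6% oxygen, without overlap and not called.

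Genotype in air was tested over the 8 darkness groups together. Bst2 was lower in KO than in wild-type liver at CT16-20, 1 of 7 genes (2% of all genes called). It was at 365, 427, 389 and 406 CPM in wild-type and 260.3, 231, 302 and 277 in KO liver, each scaled within its own table. The groups did not overlap. On the common scale the means were 398 ± 28.7 (SD, n = 4) and 270 ± 30.0 (SD, n = 4), and the fall was 1.47-fold (-0.56 ± 0.14, interval -0.85 to -0.27, adjusted p = 0.031 by edgeR). It was lost without wild-type library B, C or D or KO library A or B (-0.62 to -0.50, adjusted p up to 0.12). Macrophage markers summed to 759 to 1536 CPM in wild-type and 1430 to 2055 in KO liver in these groups. Endothelial markers (5 of 5 listed) separated, at 162 to 195 CPM in wild-type and 199 to 222 in KO liver. Neutrophil markers summed to 1.80 to 3.87 (3 of 6 listed) and 8.92 to 97.0 (5 of 6 listed). B cell markers summed to 0 to 2.78 (1 of 4 listed) and 5.25 to 11.9 (2 of 4 listed). The neutrophil and B cell sums cover unlike genes in the genotypes, so they cannot be compared. The part of any of these cells in the result was not tested.

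At CT4-8 in air 0 of 7 were called by genotype (4.51% of all genes; 2 at an unadjusted p under 0.05, 0 with DESeq2). Bst2 there was at 333, 405, 454 and 384 CPM in wild-type and 345, 308, 309 and 382 in KO liver, which overlap (-0.21, adjusted p = 0.43). Irf7 (98.4 to 181 against 77.4 to 118 CPM; -0.49) and Isg15 (15.5 to 27.9 against 12.4 to 18.3; -0.57) were not called either (adjusted p = 0.19 and 0.23). The oxygen response was not shown to differ between genotypes for any of the 7, at CT4-8 (2.41% of all genes called) or CT16-20 (0.0444%), with 0 at an unadjusted p under 0.05 and 0 with DESeq2 at both. At CT4-8 the estimates were 0.59 for Irf7 (interval -0.02 to 1.20), -1.03 for Usp18 (-2.13 to 0.07) and 1.10 for Ifit1 (-0.21 to 2.40). In simulated counts with a true log2 difference of 1, this comparison at CT4-8 called 29% of the changed genes. A missing call therefore does not exclude such a difference.

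The rest of the pathway was followed through 4 gene lists. Of 13 genes for interferons and their receptors 7 were listed anywhere, and Ifnb1, Ifna1, Ifna2, Ifna4, Ifnl2 and Ifnl3 were in none of the 5 tables. The lists of nucleic acid sensors (12 of 13 listed), signalling genes (15 of 15) and other interferon-induced genes (61 of 65) were mostly measured.

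In lung, where Oasl2, Ifit1, Ifit3 and Isg15 fell, more signalling genes fell than rose. At ZT4-8, 6 of 15 signalling genes fell and 3 rose, and 11 of 54 other interferon-induced genes fell and 3 rose. At ZT16-20 these were 7 and 2 of 15, and 14 and 3 of 54. Since 22.6% and 21.2% of all lung genes were called in either direction, the share of other interferon-induced genes was close to the background at ZT4-8. It was not far above it at ZT16-20. Of all 12150 lung genes tested, 1381 fell and 1363 rose at ZT4-8, and 1324 fell and 1257 rose at ZT16-20. Receptors fell in 3 of 6 and 2 of 6 cases with none higher, and of the 10 sensors 3 and 2 fell while 2 and 1 rose. Medians were -0.40 and -0.35 for signalling genes and -0.16 and -0.29 for the other interferon-induced genes. Irf9, the DNA-binding partner of Stat2, fell by 0.80 ± 0.12 on the log2 scale at ZT4-8 (adjusted p = 3.0e-05) and by 0.82 ± 0.12 at ZT16-20 (adjusted p = 2.7e-05). Parp14, an ADP-ribosyltransferase, fell by 1.44 ± 0.16 and 1.38 ± 0.17. Socs3, a feedback inhibitor of cytokine receptors, rose by 1.26 ± 0.11 and 1.58 ± 0.11, and Zc3hav1, an antiviral RNA-binding protein, rose by 1.60 ± 0.18 at ZT4-8.

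In liver, where Usp18 and Isg15 rose, signalling genes were called in the downward direction only. In light-dark liver 4 of 14 fell at each time and none rose, with medians of -0.29 and -0.35. Stat2, which also holds Usp18 at the receptor, was at 43.4 to 60.7 CPM in air and 18.6 to 25.5 in 6% oxygen at ZT4-8, without overlap, and fell by 1.21 ± 0.16 (adjusted p = 1.0e-05). At ZT16-20 it fell by 1.26 ± 0.16 (adjusted p = 5.8e-06). Irf1, a transcription factor of interferon responses, fell by 1.42 ± 0.28 and 1.46 ± 0.29, and Parp14 by 1.38 ± 0.26 and 1.94 ± 0.27. Of 50 other interferon-induced genes 7 fell and 0 rose at ZT4-8, and 5 fell and 2 rose at ZT16-20. Beside 9.64% and 20.3% of all liver genes called in either direction, that list was a little above the background at ZT4-8 and below it at ZT16-20. Of all 9451 liver genes tested, 398 fell and 513 rose at ZT4-8, and 972 fell and 943 rose at ZT16-20. Oasl1, a close relative of Oasl2, was among those higher at ZT16-20 (1.08 ± 0.19, adjusted p = 0.00036). None of the 5 receptor genes was called at either time, and 2 of 8 sensors fell at each.

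Stat2 and Irf1 also fell in wild-type liver in darkness, by 1.29 ± 0.19 and 1.93 ± 0.34 at CT4-8 and by 1.23 ± 0.19 and 1.5 ± 0.33 at CT16-20, where 5 and 3 of 14 signalling genes fell and none rose (11.8% and 9.83% of all genes called). In KO liver 1 of 14 fell at CT4-8 and 2 at CT16-20, among them Irf9 at both times (by 0.99 and 1.20), near the background of 5.58% at CT4-8 and with 4.48% at CT16-20. In kidney 0 of 14 were called at ZT4-8 (5.28% of all genes) and 1 fell at ZT16-20 (6.9%, near the background), again Irf9 (by 0.79 ± 0.22, adjusted p = 0.035). Cmpk2, the neighbour of Rsad2 that feeds its nucleotide substrate, fell in kidney at ZT4-8 by 0.88 ± 0.20 (adjusted p = 0.012). Rsad2 itself was called in kidney only at ZT16-20, and its log2 difference at ZT4-8 was 0.07 ± 0.26.

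Within the groups, the genes varied together in part. For 7 of them (all but Rsad2 and Ifi44), the deviation of log2(CPM + 1) from the group mean was taken in each of the 79 libraries. Pooled over all libraries, which include 3 tissues of each light-dark mouse, the median Pearson r of the 21 pairs of genes was 0.35 (0.035 to 0.56). Within tables all 21 pairs were positive in light-dark liver (median 0.59) and kidney (0.47). In lung 17 of 21 were positive (median 0.40, lowest -0.50), and in darkness 15 of 21 in wild-type liver (0.16, lowest -0.30) and 15 of 21 in KO liver (0.22, lowest -0.28). Each r is a description over libraries that share depth and tissue makeup. Library D in 6% oxygen at ZT16-20 had the highest mean scaled deviation of these genes in liver (1.87) and kidney (2.21). Its weight in the r values was not tested. Irf7 was most like the mean of the others (r = 0.63) and Usp18 least (0.22).

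Of 7617 genes that passed the filter in all 5 tables, the 10 non-members most like this mean deviation were Zbp1 (r = 0.70), Psmb8 (0.69), Rtp4 (0.68), Tap1 (0.68), Psmb9 (0.66), H2-D1 (0.66), Gbp2 (0.64), Igtp (0.63), Gbp3 (0.62) and H2-Aa (0.59). They include a nucleic acid sensor (Zbp1), immunoproteasome and peptide transport genes (Psmb8, Psmb9, Tap1), interferon-induced GTPases (Gbp2, Gbp3, Igtp) and antigen-presenting molecules (H2-D1, H2-Aa). Of the 10, 8 are in the pathway lists. The median r was 0.28 over 64 genes of those lists and -0.004 over all non-members.

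In the light-dark experiment the deviation can be followed through the organs, taking libraries of the same time, oxygen level and letter as 1 mouse. That the letter names the mouse is an assumption, as the sources state only that 3 tissues came from each mouse. Over all genes, the deviations of libraries matched this way correlated with a median r of 0.028 (6 of 48 pairs over 0.1), against -0.0047 for other letters. Of 16 mice, 4 were above their group mean in all 3 tissues, 6 below in all 3, and 6 mixed. Mouse D in 6% oxygen at ZT16-20 stood out. Its mean scaled deviation was 1.87 in liver, 2.21 in kidney and 0.95 in lung, and it was the highest of its group in 26 of 27 gene and tissue values, beside a median highest count of 5 over the 16 mice. Its Irf7 was 181 CPM in liver against 95.8 to 150.0 in the other mice of the group, 76.0 in kidney against 25.5 to 38.6, and 84.8 in lung against 48.8 to 75.1.

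Mouse B of the same group was below the mean in all 3 tissues (-1.19, -1.17 and -0.65). In air at ZT16-20, mouse C was high in all 3 (0.83, 1.16 and 0.77) and D low in all 3 (-1.47, -1.0 and -0.93). Each score is relative to its own group of 4, so 1 high mouse lowers the scores of the other mice. Mouse D in 6% oxygen also had the highest macrophage marker sum of its group in liver (965 CPM), kidney (368) and lung (876), and its neutrophil marker sum in lung was the lowest (243). The part of cell makeup in these values was not tested.

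Leaving out mouse D in 6% oxygen lowered the log2 difference of each gene called at ZT16-20. In lung Oasl2, Ifit1 and Isg15 fell by 1.54, 1.08 and 1.09 on the log2 scale without it, in kidney Rsad2 fell by 1.16, and in liver Isg15 and Usp18 were no longer called (0.59 and 0.55).

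**Figure D5:**
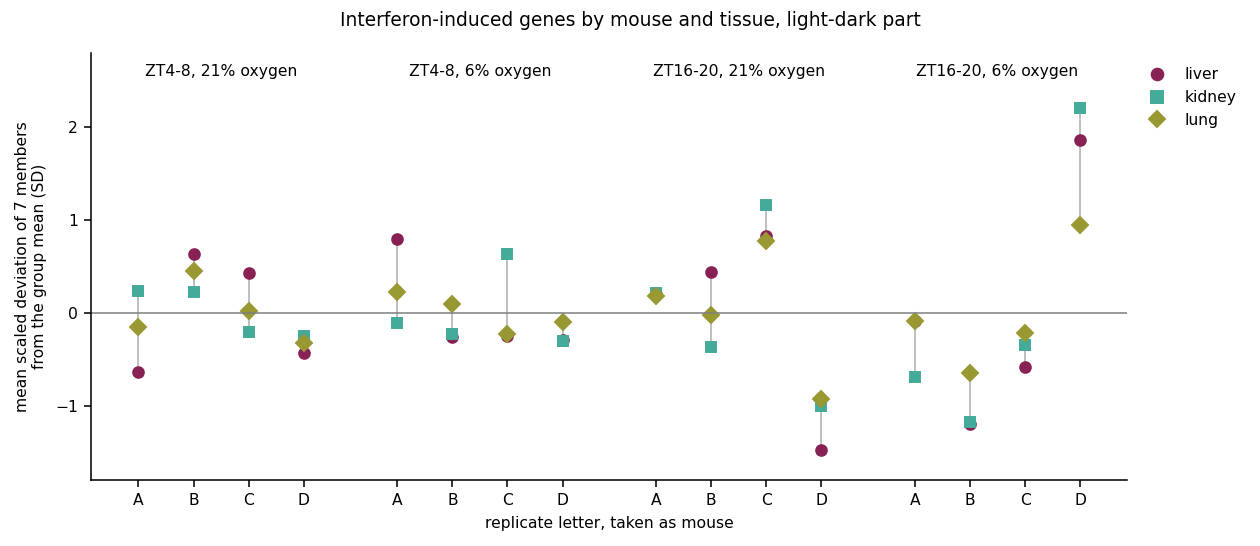
Mean scaled deviation of 7 genes from the group mean (unitless, in SD) for each of the 16 light-dark mice, with 1 symbol per tissue. Mouse D in 6% oxygen at ZT16-20 has the highest liver and kidney values, 1.87 and 2.21.

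Some of these counts may hold reads of other genes. Strand use in counting is not given in the sources used here, and Irf7 (chr7:141262706-141266481, minus strand, GENCODE vM21 on mm10) overlaps Phrf1 on the other strand, as Usp18 (chr6:121245906-121270917, plus) does Gm44148. Ifit1 (chr19:34640871-34650009) and Ifit3 (chr19:34583531-34588731) have near copies beside them, among them Ifit3b, and Oasl2 (chr5:114896936-114912234) has Oasl1, so reads could be split or lost between them. Isg15 (chr4:156199424-156200818), Rsad2 (chr12:26442746-26456452), Bst2 (chr8:71534255-71537456) and Ifi44 (chr3:151730922-151749960) carry no such overlap in the annotation.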

How the data were processed

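RNA of 79 mouse samples was made into indexed libraries after cDNA amounts were evened by qPCR of an actin gene, which were then pooled and linearly amplified through in vitro transcription, per the labels' protocols. The authors deposited whole-number counts per gene in 5 tables. Reads were handled with bcl2fastq, cutadapt, STAR and HTSeq on mm10, per the submitters' processing notes. Their versions, the annotation and strand use in counting were not given in the sources used here. There were 0 unused per-sample columns.

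Genes and lists were chosen with earlier results of these data known. Counts were tested with edgeR 4.0.16 (R 4.3.3): filterByExpr (minimum count 10, minimum total 15), TMM scaling, robust quasi-likelihood fits, Benjamini-Hochberg adjustment of p-values over every gene tested, call at 0.05. The 5 tables had 1 fit each over 4 groups. The 8 darkness groups had a joint fit, and so did the 48 light-dark libraries, with mouse as a block. This gave 30 comparisons. SE is the log2 difference over the root of the F statistic, and intervals cover 95%. Levels are CPM. Promoter windows are RefSeq's.

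Named besides the 9 genes were up to 4 called pathway genes per comparison by smallest adjusted p, and the 10 genes most alike.

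Mice were matched across tissues by time, oxygen and letter. That a letter names the same mouse in its 3 tissues is assumed (median r of matched deviations 0.028, 6 of 48 pairs over 0.1). Same-letter libraries of different groups in a table did not deviate together, with a median r of -0.066 to -0.014, so letters were not used as pairs. Alternatives were RLE scaling, no filter, DESeq2 1.42.0, the replicate letter as a block (no mouse block in the light-dark fit) and leaving out each library. Added after seeing the data were fits without 3 lung air libraries or their mice and plain library totals. Totals of 1.44 M to 6.74 M limit genes of a few CPM. The scripts were tested on simulated data.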

Additional observations from a re-analysis of the deposited data

Results flagged for a closer look

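In 9 of the 164 sets of 4 libraries checked, 1 library lay apart from the other members of its group by Dixon's test (its gap to the nearest library over the group's range, above the 95% critical value), where chance gives about 1 in 20. Light-dark liver held 2 of them at ZT4-8: Oasl2 was 2.91 CPM in air library D and 3.69 to 3.73 in the others, and Rsad2 was 2.66 in 6% library A and 1.01 to 1.27 in the others. In kidney in 6% oxygen, Ifit1 was 8.27 in library B at ZT4-8 (others 5.62 to 5.98) and Ifit3 was 24.7 in library D at ZT16-20 (others 12.3 to 13.9). In lung in 6% oxygen, Ifit1 was 11.1 in library D at ZT4-8 (others 17.4 to 17.9) and 23.3 in library D at ZT16-20 (others 14.6 to 15.9). The letters at ZT4-8 and ZT16-20 stand for different mice. In KO liver, Ifi44 was 3.09 in air library C at CT4-8 (others 1.08 to 1.26), 3.78 in 6% library D at CT4-8 (others 0.842 to 1.27) and 3.15 in air library D at CT16-20 (others 0.542 to 0.693), a few reads each.

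Of 81 tested differences between oxygen responses, 5 passed an adjusted p of 0.05 by edgeR. Isg15 (-0.93) and Usp18 (-1.47) were lower in kidney than in liver, and Isg15 (-1.33), Usp18 (-1.44) and Irf7 (-0.51) were lower in lung than in liver, as log2 differences of the oxygen response.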

How the results depend on the processing

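Calls of the falls of Oasl2 at both times, Ifit3 at ZT4-8, and Ifit1 and Isg15 at ZT16-20 in lung held under every alternative run. Each call by oxygen or time within liver or kidney, and the genotype call, was lost without some library. Some calls between tissues held in every run, among them Isg15 by oxygen in kidney and in lung against liver. The replicate letter as a block called 0 of the 2 genes in liver at ZT16-20. It also lost Isg15 in lung at ZT4-8 and changed no other call on these genes. Without the mouse block, Irf7 between lung and liver by oxygen and Rsad2 between lung and kidney lost their calls. DESeq2 called 1 gene by time in light-dark liver in air, 1 by oxygen in wild-type liver at CT16-20, and 2 by time in wild-type liver in air, in place of 0, 0 and 1. Without the 3 lung air libraries, 2 genes (Oasl2 and Ifit3) were called in lung at ZT4-8 in place of 4, and without their mice 1 (Isg15) between kidney and liver by oxygen in place of 2. With plain library totals 9 genes differed between lung and liver in air, against 5, and 5 by oxygen, against 3. The sign of Ifit3 (0.40) reversed with plain totals in kidney against liver. So did those of Oasl2 there (0.87) and of Ifi44 (1.12) and Usp18 (1.26) in lung against liver. Oasl2, Ifi44 and Usp18 had not been called in the main fit (-0.10, -0.18 and -0.04). This choice also moves the median of all genes. Relative to that median none reversed (Ifit3 -0.59, Oasl2 -0.11, Ifi44 -0.23 and Usp18 -0.10).

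Leaving out single libraries or mice gave counts of 0 to 1 in liver at ZT4-8, 0 to 3 in liver at ZT16-20, 0 to 1 in liver by time, 0 to 1 in kidney at ZT16-20, 2 to 4 in lung at ZT4-8, 0 to 2 in wild-type liver by time, 0 to 1 by genotype at CT16-20, and 1 to 3 between kidney and liver by oxygen. Fits without a library have fewer samples.

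Over all genes, DESeq2 called 219 by time in kidney (119 by edgeR), 212 by time in lung (114), 21 by time in KO liver (2), 84, 66 and 24 for the difference in oxygen response between times in kidney, lung and KO liver (40, 31 and 1), and 37 for that between genotypes at CT16-20 (4). The letter block gave 20, 242 and 7 for kidney between times, KO liver by oxygen at CT16-20 and genotypes by oxygen at CT16-20 (40, 382 and 4). Without the 3 lung air libraries, lung gave 29 by time and 19 between times, and without their mice lung against kidney by oxygen gave 488 (858). The cause was not tested. Depth limits Rsad2, Ifi44 and kidney Usp18, with at most 39, 33 and 18 reads in any library.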
